A study of Caenorhabditis elegans with 4 samples.

Results

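Lysozymes, saposin-like proteins and small secreted peptides form part of the antimicrobial arsenal of Caenorhabditis elegans, and 48 of their genes are described here in wild-type larvae of the third larval stage (L3). They were chosen by name, as the genes whose symbol starts with lys-, ilys-, spp-, abf-, cnc-, fip- or thn- followed by a number. They carry 49 of the 21632 probes of the array and are 48 of 14958 named genes. RefSeq lists 78 genes under these 7 prefixes in the assembly WBcel235, and the other 30 are not analysed here. All 10 lys and 6 ilys genes of that list were measured, with 16 of 30 spp, 3 of 6 abf, 7 of 11 cnc, 3 of 7 fip and 3 of 8 thn genes.

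The samples are 4 numbered preparations of L3 RNA, labelled as wild type with no treatment given, each hybridised to 1 array of 2 colours with RNA of a wild-type mixed reference in the other channel. Neither the makeup of the reference nor the strain, diet and culture conditions are given in the sources used here, and nothing says that the preparations came from separate cultures, so the p-values measure a spread that may be technical. The values are log2 ratios, centred on the median of each array, and in the main fit they were not adjusted for array spread. The median absolute deviation over probes (on the scale of an SD) was 0.56, 0.86, 0.58 and 0.41 in preparations 1 to 4. Large values in preparation 2 are to be read with its wide spread in mind. A value above 0 stands for more transcript in L3. That direction is likely and not certain, since the dyes are not labelled; with the opposite direction every higher would read lower. The test uses the spread of the ratios over arrays, which holds variation of both channels, and the part of each cannot be told apart. Fewer cells of a type cannot be told apart from less RNA per cell. Values are mean ± SD over the 4 preparations unless stated, and a gene passed the threshold at a limma p under 0.05 after Benjamini-Hochberg adjustment over all 19943 genes and probes tested.

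Worms live on bacteria, which they grind in the pharynx and digest in the intestine, and the same lytic enzymes that break up food also act against pathogens. Lysozymes cut the peptidoglycan of bacterial walls, and saposin-like proteins of the caenopore type open pores in bacterial membranes. Caenacins are short glycine-rich peptides made by the epidermis, many of them after fungal infection or wounding, and the thaumatin-like genes are named for their resemblance to the thaumatin family of plants, which includes defence proteins. Many of these genes are regulated by insulin, TGF-beta and p38 MAP kinase signalling and by intestinal GATA factors.

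Arrays and labels were set beside genes with known sites or times of expression. These lists were chosen with earlier results of these data known, so they are no independent check. All 12 oocyte and yolk genes of a marker list were lower in L3 (list median -4.17, preparation medians from -4.53 to -3.69). Of 16 intestinal markers 8 were higher and 0 lower (median 0.84, preparation medians from 0.48 to 1.29), and of 12 epidermal markers 6 were higher and 0 lower (median 0.98, from 0.42 to 1.10). Among 10 pharyngeal markers 2 were higher and 1 lower (median 0.74). None of 3 coelomocyte markers passed in limma, of which 2 had an unadjusted p under 0.05, as did 7004 of all 19943 tested. The part of these cell types in the results below was not tested.

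The 48 genes leaned to the low side. By prefix median the thaumatin-like and caenacin genes were lowest, though 3 of 7 caenacin genes did not pass. Of these, cnc-8 and cnc-3 had positive means (0.88 and 0.70). Of 10 lys genes 5 were higher, and of these lys-4 alone kept its call without each preparation in turn. All 48 had values on at least 3 arrays and so were tested; spp-16 had 3 values and the rest 4. In limma 6 members were higher and 15 lower in L3, which is 12.5% and 31.25% of them, against 8.31% higher and 10.8% lower of all genes and probes tested (19.1% in either direction). Of the called members 2 of the higher and 13 of the lower ones differed at least 2-fold, as did 920 of 1657 higher and 1277 of 2149 lower calls over all tested. Without preparations 1 to 4 in turn, 3, 4, 2 and 2 members were higher and 10 to 14 lower. Over all tested, 793 to 1092 were then higher and 1013 to 1640 lower. The median of all members was -0.29, against 0.018 over all tested. Of 47 members with 4 values, 8 were positive and 23 negative on every array, while 22.5% of all tested were positive and 23.7% negative on every array (46.2% in all).

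**Figure D1:**
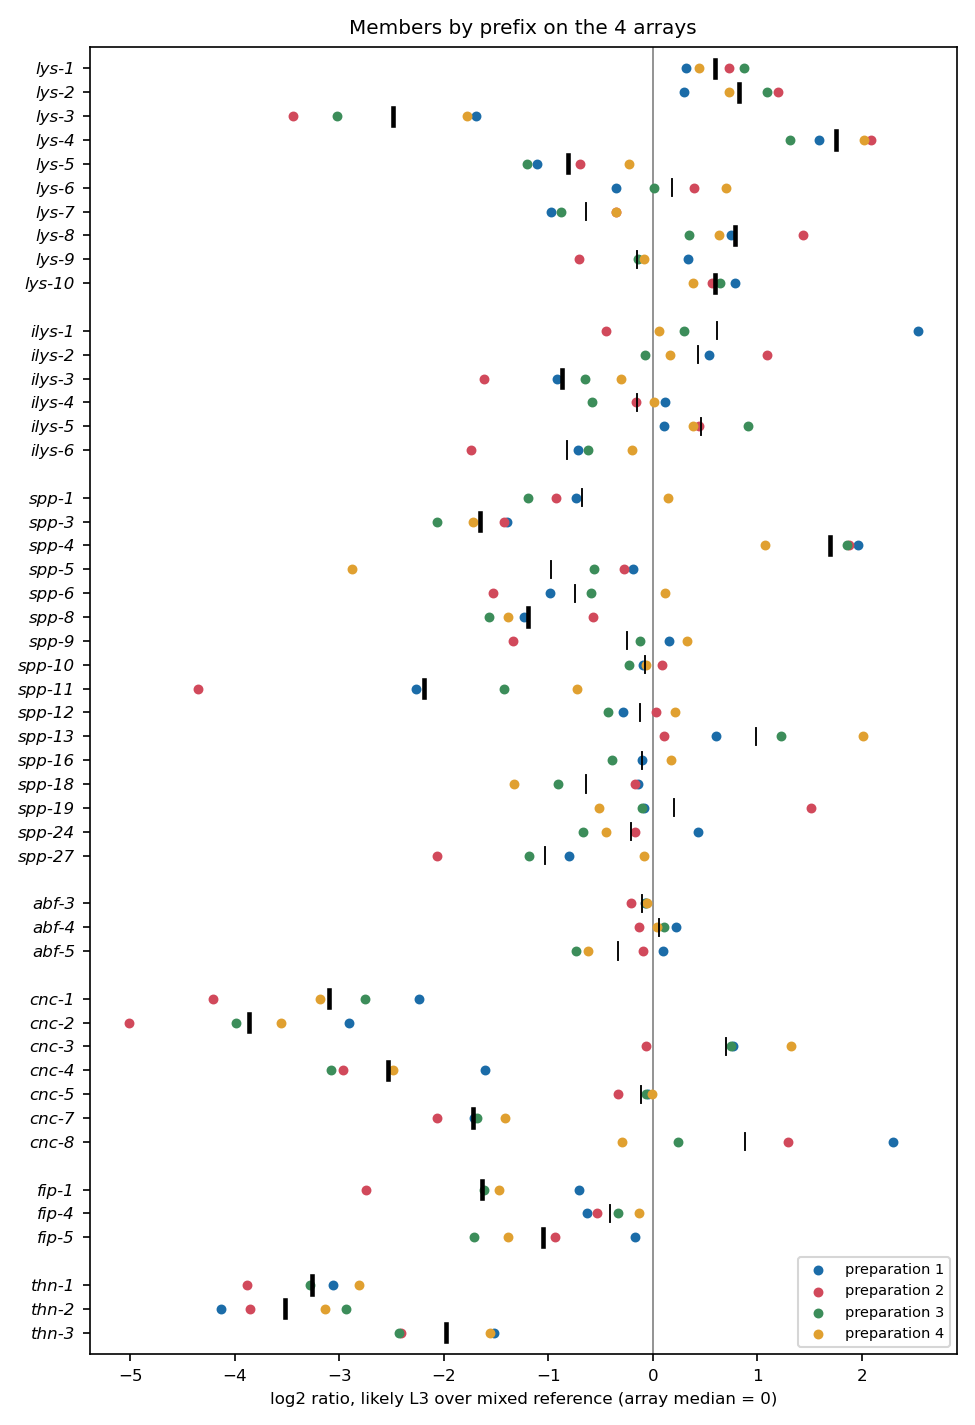
Log2 ratio of each of the 48 members (rows, grouped as lys, ilys, spp, abf, cnc, fip and thn) in each of 4 L3 preparations (coloured points), with the mean as a vertical bar, thick where the gene passed the threshold. The points of all 3 thn genes and of cnc-1, cnc-2, cnc-4, cnc-7, lys-3 and spp-3 lie below -1 in every preparation, and those of lys-4 and spp-4 above 1.

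The counts by prefix are given beside 8.31% higher and 10.8% lower of all genes and probes tested. The lys genes held 5 higher and 2 lower of 10 (median 0.39), the ilys genes 0 higher and 1 lower of 6 (median 0.14), and the spp genes 1 higher and 3 lower of 16 (median -0.44). Of 7 cnc genes 4 were lower and 0 higher (median -1.72), of 3 fip genes 2 were lower and 0 higher (median -1.05), and all 3 thn genes were lower (median -3.26). None of the 3 abf genes passed in limma, and 0 had an unadjusted p under 0.05, while 7004 of all 19943 tested did. Without preparations 1, 2, 3 and 4 in turn, 2, 1, 1 and 1 lys genes were higher and 1, 1, 1 and 2 lower, 1, 3, 2 and 5 spp genes and 2, 1, 0 and 0 fip genes were lower, and 0 ilys genes passed each time, while the lower counts stayed at 4 for cnc and 3 for thn. Calls over all tested fell as well, to 793, 1047, 925 and 1092 higher and 1100, 1526, 1013 and 1640 lower. With all 4 preparations they were 1657 and 2149. Several of these groups are small, and the differences between prefixes were not tested.

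**Figure D2:**
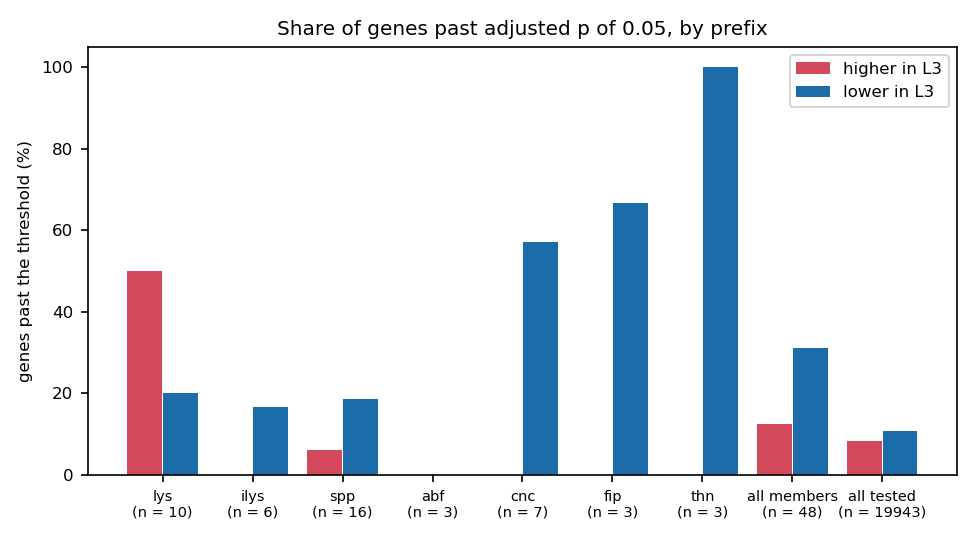
Percentage of measured genes past the threshold, higher (red) and lower (blue) in L3, for each prefix, for all 48 members and for all 19943 genes and probes tested. The lower bar reaches 100% in the 3 thn genes, and the lys genes are the prefix with more higher than lower calls.

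The lys genes encode lysozymes of a type shared with the amoeba Entamoeba. The highest was lys-4, with log2 ratios of 1.60, 2.09, 1.32 and 2.03 in preparations 1 to 4. It lay above 1 on every array, and its mean of 1.76 ± 0.37 (3.38-fold higher, limma adjusted p = 0.00237) was at percentile 98.4 of all tested. The lowest was lys-3, at -1.69, -3.44, -3.02 and -1.78, so that preparations 2 and 3 were lower than 1 and 4. Its mean was -2.48 ± 0.88 (5.59-fold lower, adjusted p = 0.00507). Both calls held with any 1 preparation left out.

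Smaller rises were seen in lys-8 and lys-1, both known from infection, and in lys-2 and lys-10. lys-8, which is induced by Serratia marcescens and depends on the TGF-beta ligand DBL-1, lay at 0.75, 1.44, 0.34 and 0.63 (mean 0.79 ± 0.47, limma adjusted p = 0.0450). lys-1, induced by the same bacterium, lay at 0.32, 0.73, 0.87 and 0.45 (mean 0.59 ± 0.25, adjusted p = 0.0489). Both were positive on 4 of 4 arrays, and both calls were lost without any 1 preparation (adjusted p from 0.0656 to 0.136 for lys-8 and from 0.0929 to 0.162 for lys-1). lys-2 lay at 0.30, 1.20, 1.09 and 0.73 (mean 0.83 ± 0.41, adjusted p = 0.0316), a call lost without preparation 2, 3 or 4 (0.0823, 0.114 and 0.0805). lys-10 was more even, at 0.78, 0.57, 0.65 and 0.38 (mean 0.60 ± 0.17, adjusted p = 0.0370), and was lost without any 1 preparation as well (from 0.0692 to 0.138).

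On the low side stood lys-5, at -1.11, -0.70, -1.21 and -0.23 (mean -0.81 ± 0.45, limma adjusted p = 0.0385), a call lost without preparation 1, 2 or 3 (0.146, 0.0762 and 0.130). lys-7, a target of the insulin-regulated factor DAF-16 that is also induced by Serratia, was negative on 4 of 4 arrays, at -0.98, -0.35, -0.88 and -0.35. Its mean of -0.64 ± 0.33 missed the threshold (adjusted p = 0.0519). It passed with scaled arrays (0.0437), quantile normalization (0.0403) and a value on all 4 arrays (0.0484). The title month as a block (0.0357) and array weights (0.0352) also took lys-7 past the threshold. It missed the threshold without each preparation in turn (from 0.0626 to 0.177). The same held in preparations 1 and 2 alone (0.217) and in 3 and 4 alone (0.196). Values as deposited, robust eBayes and each probe apart did not give the call either. Of these genes induced by Serratia, lys-1 and lys-8 lay above 0 and lys-7 below 0 on every array. lys-6 (0.19 ± 0.46) and lys-9 (-0.15 ± 0.43) changed sign between preparations and did not pass (adjusted p = 0.549 and 0.628).

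The invertebrate-type lysozymes, encoded by the ilys genes, were closer to 0. ilys-3, which acts in the pharynx, intestine and coelomocytes against Gram-positive bacteria, lay at -0.91, -1.61, -0.65 and -0.30. It was negative on every array, with a mean of -0.87 ± 0.56 (1.83-fold lower, limma adjusted p = 0.0470), and the call was lost without any 1 preparation (adjusted p from 0.0504 to 0.149). ilys-6 lay at -0.71, -1.74, -0.62 and -0.20 (mean -0.82 ± 0.65) and did not pass (limma adjusted p = 0.0754). It passed with scaled arrays (0.0369) and quantile normalization (0.0379), and missed the threshold without each preparation in turn (from 0.0729 to 0.181). In ilys-3 and ilys-6 preparation 2 was lowest and 4 least low, which are the arrays with the widest and narrowest spread. The part of array spread in this was not tested. ilys-5 was positive on 4 of 4 arrays at 0.46 ± 0.34 (adjusted p = 0.121).

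ilys-1 rested on 1 array. It lay at 2.54 in preparation 1 and at -0.44, 0.30 and 0.058 in preparations 2 to 4, and its mean of 0.61 ± 1.32 became -0.028 without preparation 1 (limma adjusted p = 0.387 and 0.945). ilys-2 lay at 0.43 ± 0.51 and ilys-4 at -0.15 ± 0.31, and neither passed (adjusted p = 0.215 and 0.558).

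Saposin-like proteins share a compact fold held by disulphide bonds that binds lipid membranes. Their clearest members moved apart. spp-4 lay at 1.96, 1.88, 1.86 and 1.08, close together in preparations 1 to 3 and lower in 4, with a mean of 1.69 ± 0.41 (3.24-fold higher, limma adjusted p = 0.00324). spp-3, which encodes a caenopore of the intestine, lay at -1.39, -1.42, -2.07 and -1.73 (mean -1.65 ± 0.32, 3.14-fold lower, adjusted p = 0.00237). All values of spp-4 lay above all those of spp-3, and both calls held without any 1 preparation.

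The other lower spp genes were less even. spp-8 lay at -1.23, -0.57, -1.57 and -1.39 (mean -1.19 ± 0.43, limma adjusted p = 0.0109), and its call was lost without preparation 1 (0.0550). spp-11 lay at -2.27, -4.35, -1.43 and -0.72, the widest spread of all members. Its mean of -2.19 ± 1.57 passed (4.57-fold lower, adjusted p = 0.0390), was lost without preparation 1 or 3 (0.133 and 0.0769), and shrank to -1.47 without preparation 2 (adjusted p = 0.0335). The mean of spp-11 was -3.31 over preparations 1 and 2 and -1.07 over 3 and 4.

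The best studied caenopores did not pass. spp-5 encodes caenopore-5, a pore-forming protein of the intestine that kills ingested bacteria. It lay at -0.19, -0.28 and -0.56 in preparations 1 to 3 and at -2.88 in preparation 4 (mean -0.98 ± 1.28, limma adjusted p = 0.181), and its mean was -0.34 without preparation 4 (0.264). spp-1, also a caenopore of the intestine, lay at -0.74, -0.93, -1.20 and 0.15, so that preparation 4 had the opposite sign; its mean was -0.68 ± 0.58 (adjusted p = 0.0994), and without preparation 4 it passed at -0.95 (0.0365). spp-12, whose product acts in pharyngeal neurons, lay at -0.12 ± 0.29 (adjusted p = 0.653).

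Of the remaining spp genes, spp-27 was negative on every array, at -0.80, -2.07, -1.19 and -0.081 (mean -1.03 ± 0.83, limma adjusted p = 0.0657). It passed without preparation 4 (-1.35, adjusted p = 0.0412) and with scaled arrays, quantile normalization and the month block (0.0393, 0.0391 and 0.0488). spp-13 was positive on every array, at 0.60, 0.11, 1.23 and 2.01 (mean 0.99 ± 0.82, adjusted p = 0.0735), and passed without preparation 2 (1.28, adjusted p = 0.0411) and with array weights (0.0401). spp-6 and spp-18 lay at -0.75 ± 0.69 and -0.64 ± 0.58 without passing (adjusted p = 0.106 and 0.116). The means of spp-9, spp-10, spp-16, spp-19 and spp-24 lay between -0.24 and 0.20, with adjusted p-values from 0.509 to 0.738. Of these, spp-10 was the most even, at -0.075 ± 0.13.

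The abf genes are named after antibacterial factors first known from the roundworm Ascaris and encode defensin-like peptides. Those measured stayed near 0, with abf-3 at -0.10 ± 0.074, abf-4 at 0.059 ± 0.15 and abf-5 at -0.33 ± 0.40 (limma adjusted p = 0.630, 0.800 and 0.262). abf-5 lay at 0.10 and -0.094 in preparations 1 and 2 and at -0.73 and -0.62 in 3 and 4.

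Caenacin genes gave the lowest single value of the set. cnc-2, an epidermal peptide gene induced by the fungus Drechmeria coniospora through DBL-1, lay at -2.91, -5.01, -3.99 and -3.56. Every preparation was below -2, and the mean of -3.87 ± 0.88 (14.6-fold lower, limma adjusted p = 0.00135) was at percentile 0.326 of all tested. cnc-1 lay at -2.24, -4.21, -2.75 and -3.19 (mean -3.10 ± 0.84, 8.56-fold lower, adjusted p = 0.00223). cnc-4 lay at -1.61, -2.97, -3.08 and -2.49 (mean -2.54 ± 0.67, 5.80-fold lower, adjusted p = 0.00237). In all 3 genes preparation 1 was the least low. cnc-7 was more even, at -1.71, -2.07, -1.68 and -1.42 (mean -1.72 ± 0.27, 3.29-fold lower, adjusted p = 0.00184). All 4 calls held without any 1 preparation.

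Other caenacin genes did not pass. cnc-5 was negative on 4 of 4 arrays and near 0, between -0.34 and -0.0029 (mean -0.11 ± 0.15, limma adjusted p = 0.619). cnc-3 lay at 0.77, -0.060, 0.75 and 1.33 (mean 0.70 ± 0.57, adjusted p = 0.0902), and passed without preparation 2 (0.95, adjusted p = 0.0304) and with array weights (0.0405). It is the member with 2 probes, which gave means of 0.70 and 0.69 and differed in sign in preparation 2, at 0.036 and -0.16. cnc-8 lay at 2.30, 1.29, 0.24 and -0.30 (mean 0.88 ± 1.15, adjusted p = 0.184), high in preparations 1 and 2 and near 0 in 3 and 4.

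The fip genes take their name from induction by fungal infection. fip-1 lay at -0.71, -2.75, -1.62 and -1.47 (mean -1.64 ± 0.84, 3.11-fold lower, limma adjusted p = 0.0173), a call lost without preparation 3 or 4 (0.0617 and 0.0526). fip-5 lay at -0.17, -0.93, -1.71 and -1.39 (mean -1.05 ± 0.67, adjusted p = 0.0391), a call lost without preparation 2, 3 or 4 (0.0819, 0.123 and 0.119). fip-4 was negative on 4 of 4 arrays at -0.40 ± 0.22 and did not pass (adjusted p = 0.120). Preparation 1 was the least low in fip-1 and fip-5 and the lowest in fip-4.

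The thaumatin-like genes were low throughout. thn-2, which rises upon infection with Pseudomonas aeruginosa, lay at -4.13, -3.86, -2.94 and -3.13 (mean -3.52 ± 0.57, 11.4-fold lower, limma adjusted p = 0.000658). thn-1 lay at -3.06, -3.88, -3.28 and -2.81 (mean -3.26 ± 0.46, 9.57-fold lower, adjusted p = 0.000549). thn-3, which RefSeq lists as a pseudogene, lay at -1.52, -2.41, -2.42 and -1.56 (mean -1.98 ± 0.50, 3.94-fold lower, adjusted p = 0.00282). No preparation came above -1.5 in any of these genes, and all 3 calls held without any 1 preparation.

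Many of the members sit side by side on the chromosomes, and several neighbours had unlike ratios. Pairs of genes elsewhere in the genome were not compared. In the gene order of WBcel235, 21 members fall into 6 runs of 3 to 5 members. The differences below are differences of log2 ratios on the same array. On chromosome V, lys-2 exceeded lys-3 next to it by 3.31 ± 1.27, on 4 of 4 arrays, while lys-1 and lys-2 differed by -0.24 ± 0.21. lys-4 exceeded its neighbour lys-5 on chromosome IV by 2.57 ± 0.23, again on every array, and the difference of lys-5 from lys-6 was -1.0 ± 0.20. The preparations thus kept the order lys-4, lys-6, lys-5 from high to low.

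The caenacin run on chromosome V alternated. In the order cnc-1, cnc-5, cnc-4, cnc-3, cnc-2, the low genes cnc-1, cnc-4 and cnc-2 were separated by cnc-5 and cnc-3. The difference of cnc-3 from cnc-2 was 4.56 ± 0.60 and that of cnc-1 from cnc-5 was -2.99 ± 0.72, each with 1 sign on 4 of 4 arrays. On chromosome X, spp-4 lay between spp-6 and spp-5 and exceeded spp-5 by 2.67 ± 0.87, and the difference of spp-6 from spp-4 was -2.44 ± 1.06. The thn run on chromosome IV was low as a whole, with thn-3 above thn-2 by 1.54 ± 0.86. The difference of ilys-3 from ilys-2 was -1.30 ± 1.04, negative on every array, and ilys-2 and ilys-1 had no fixed order (-0.18 ± 1.45). Also on X, fip-5 and cnc-8 have 1 gene between them and differed by -1.93 ± 0.60, with fip-5 lower in each preparation. With 1 gene between them on chromosome IV, spp-10 exceeded spp-8 by 1.11 ± 0.32, on 4 of 4 arrays. spp-27 and spp-19 on chromosome V have 2 genes between them and differed by -1.24 ± 1.69. Probes of similar genes may bind each other's transcripts, which was not tested.

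**Figure D3:**
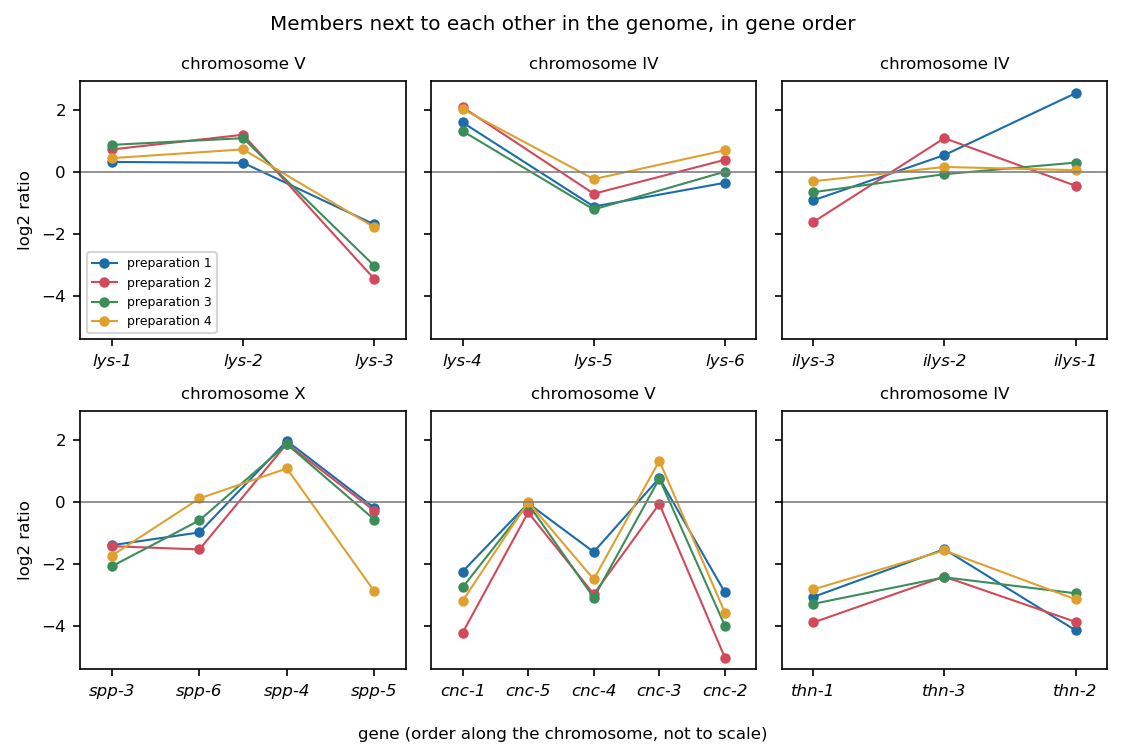
Log2 ratio of members in the 6 runs of neighbouring genes, in their order along chromosomes IV, V and X (x axis, not to scale; 1 other gene lies between spp-3 and spp-6), with a line for each L3 preparation. The zigzag of the cnc run, with cnc-5 and cnc-3 above cnc-1, cnc-4 and cnc-2, is seen in all 4 preparations, and so is the drop from lys-4 to lys-5.

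The array titles end in what reads as a date, with 1 month for preparations 1 and 2 and another for 3 and 4, and both pairs were compared. Of 47 members with 4 values, 42 had the same sign in both pair means. In limma 0 members differed between the pairs after adjustment (lowest adjusted p = 0.546), as did 0.0% of all tested. At an unadjusted p under 0.05, 7 of the 47 members differed, against 1328 of 19201 (6.92%) of all tested. These 7 were cnc-8, spp-11, spp-13, thn-2, spp-18, fip-5 and spp-6, chosen here by that p. cnc-8 had a mean of 1.80 in preparations 1 and 2 and -0.028 in 3 and 4, spp-13 of 0.36 and 1.62, spp-18 of -0.15 and -1.12, and fip-5 of -0.55 and -1.55. thn-2 was low in both, at -3.99 and -3.04, and spp-6 lay at -1.25 and -0.24.

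Both pairs alone gave the calls of lys-3, lys-4, spp-3, spp-4, cnc-1, cnc-2, cnc-4, cnc-7, thn-1, thn-2 and thn-3. These 11 are also the members whose calls held without each preparation in turn. The means of lys-4 were 1.84 and 1.67 in the 2 pairs, those of cnc-2 were -3.96 and -3.77, and those of thn-1 were -3.47 and -3.05. The other 10 called members each lost the call without at least 1 preparation.

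**Figure D4:**
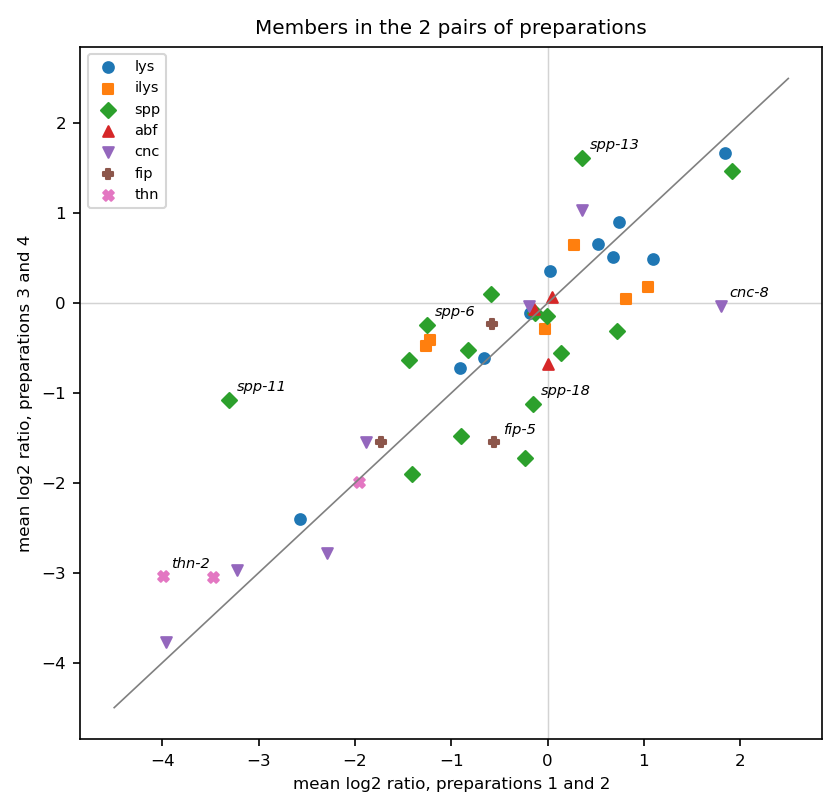
Mean log2 ratio of each member with 4 values in preparations 1 and 2 (x axis) and in 3 and 4 (y axis), with a symbol for each prefix and the line of equal values. The 7 genes with an unadjusted p under 0.05 for the difference are named; cnc-8 lies at 1.80 and -0.028, and spp-11 at -3.31 and -1.07.

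In the main fit, genes that regulate the antimicrobial effectors passed at shares near or below those of all tested. Of a list of 55 genes of the p38, TGF-beta, insulin and other immune pathways, 47 were tested and the other 8 are not analysed here. In limma 2 were higher (4.26%) and 5 lower (10.6%), against 8.31% and 10.8% of all tested. With scaled arrays or quantile normalization 8 of the 47 were lower. Over all tested 2397 and 2485 were lower in these settings, against 2149 of 19943 in the main fit. The tested genes had a list median of -0.035 and means between -1.28 and 1.06. Without preparations 1 to 4 in turn, 0, 1, 0 and 1 were higher and 1, 3, 1 and 3 lower. Over all tested, 793 to 1092 were then higher and 1013 to 1640 lower. Core components of the p38 cascade, named here after their values were seen, did not pass, with the kinase genes pmk-1 at -0.21 ± 0.50, sek-1 at -0.24 ± 0.18 and nsy-1 at -0.022 ± 0.42 and the adaptor gene tir-1 at -0.23 ± 0.26 (adjusted p from 0.290 to 0.949). The intestinal GATA factor gene elt-2 was positive on 4 of 4 arrays at 0.33 ± 0.24 (adjusted p = 0.186), and dbl-1 lay at 0.0069 ± 0.25 (adjusted p = 0.980), both also named after their values were seen.

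The lower regulators came from several pathways. akt-1, a kinase that holds DAF-16 out of the nucleus, lay at -1.60, -1.62, -1.23 and -0.66 (mean -1.28 ± 0.45, limma adjusted p = 0.00903), and its call held without any 1 preparation. daf-4, the type II TGF-beta receptor gene, lay at -0.95, -0.78, -1.06 and -0.47 (mean -0.81 ± 0.26, adjusted p = 0.0188), a call lost without preparation 1 or 3 (0.0842 and 0.0782). The nuclear receptor gene nhr-49 lay at -0.69 ± 0.30 (adjusted p = 0.0363, lost without 1, 2 or 3 at 0.137, 0.0915 and 0.0988). hsf-1, the heat shock factor gene, lay at -0.71 ± 0.10 on 3 arrays (adjusted p = 0.0461, lost without 1, 3 or 4 at 0.165, 0.166 and 0.115). vhp-1, a MAP kinase phosphatase gene, lay at -0.62 ± 0.13 (adjusted p = 0.0290, lost without any 1, from 0.0511 to 0.112).

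On the high side, gpa-12, whose G protein subunit acts upstream of the p38 cascade in the epidermis, lay at 1.33, 1.56, 0.88 and 0.48 (mean 1.06 ± 0.48, limma adjusted p = 0.0192), a call lost without preparation 1 or 3 (0.0876 and 0.0576). kgb-1, a JNK-like kinase gene, lay at 0.57 ± 0.15 (adjusted p = 0.0403) and was lost without any 1 preparation (from 0.0961 to 0.113). daf-16, named after its values were seen, was negative on 4 of 4 arrays at -0.55 ± 0.25 and did not pass (adjusted p = 0.0592).

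**Figure D5:**
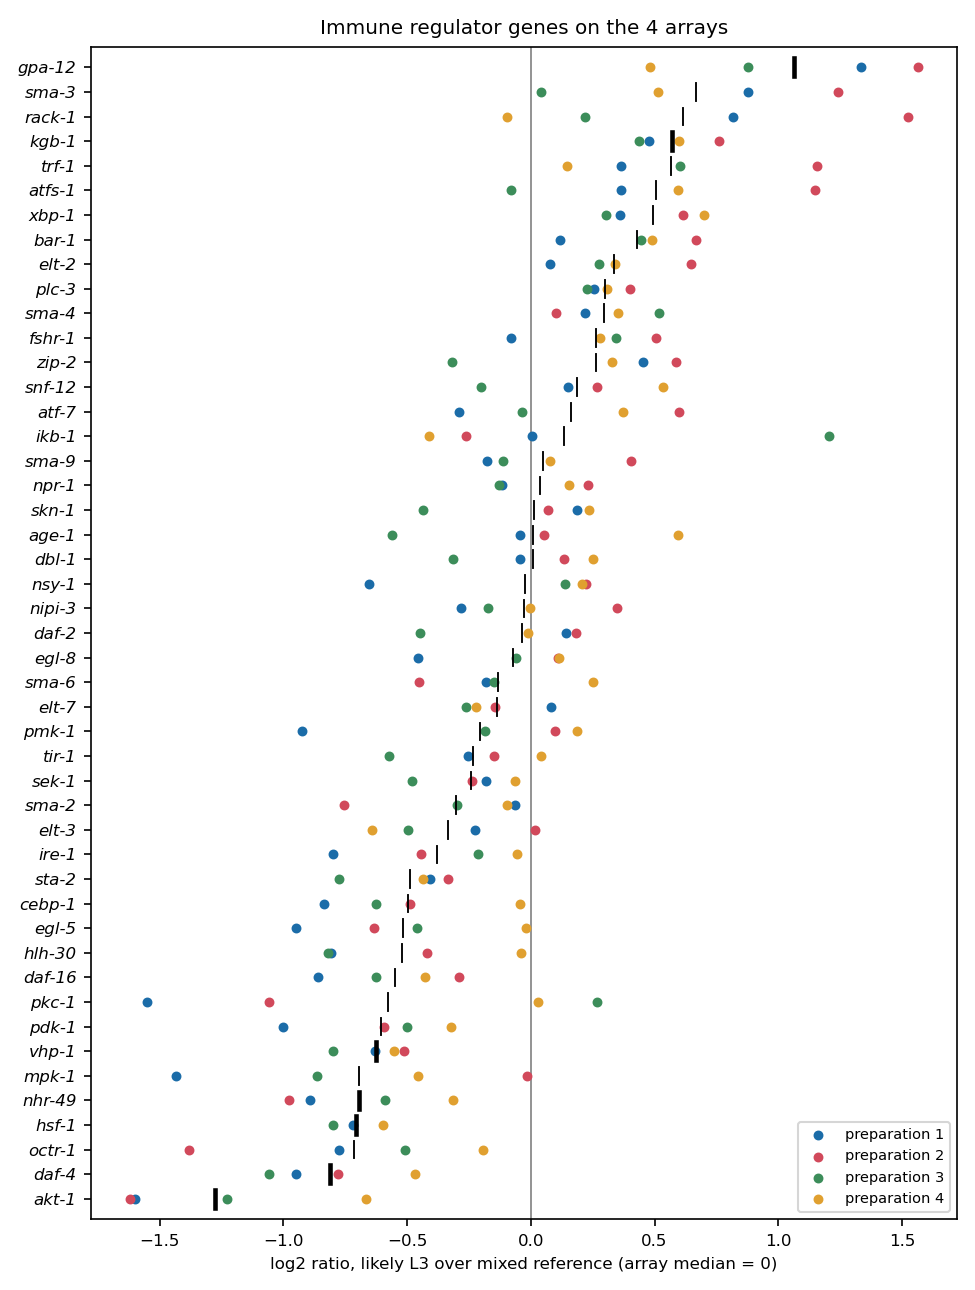
Log2 ratio of the 47 measured immune regulator genes (rows, ordered by mean) in each of 4 L3 preparations (coloured points), with the mean as a vertical bar, thick where the gene passed the threshold. The means run from -1.28 for akt-1 to 1.06 for gpa-12, and 22 of the genes have points on both sides of 0.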

How the data were processed

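The table deposited by the authors holds log2 ratios of the 2 channels of 4 arrays, and per the labels the reference RNA is in the first channel and L3 RNA in the second. The correction, normalization and filtering of spots were not given in the sources used here. Spot intensities were not analysed here, and precision is limited by the number of arrays. Column medians lay between -0.026 and 0.023. Raised from log2, at least 99.96% of ratios on each array were multiples of 0.001, to within 0.02 of that step, which is a rounding error of 0.023 (log2) for the lowest member value.

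Of 21632 probes 16450 had 1 gene symbol, 247 several and 4935 are unnamed here; updating through Entrez numbers changed 0 symbols. Arrays were centred on their median, the probes of a gene averaged, and genes or probes with values on at least 3 arrays tested against 0 across all genes by a two-sided test of the intercept in limma (version 3.58.1, lmFit with eBayes, under R 4.3.3), with Benjamini-Hochberg adjustment and a threshold of 0.05. The fit was also run on simulated independent noise with the same spread on every array. The arrays here differ in spread, so that run is no check of the calls under unequal spread. Pearson correlations between arrays over probes were 0.620 to 0.723. Members, marker lists and regulators were chosen with earlier results of these data known. Genes were named by rule: members past the threshold, up to 8 a prefix, the remaining members by their values, and up to 6 called regulators in each direction. Alternatives were other centring, scaling and quantile normalization, array minimums, single probes, robust eBayes, array weights, the title month as a block or apart, and leaving out each preparation.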

Additional observations from a re-analysis of the deposited data

Results flagged for a closer look

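Of 47 members with 4 values, 3 had 1 array far from the others by Dixon's test at the 95% level, which flags about 5% of groups by chance. spp-4 lay at 1.08 in preparation 4 and between 1.86 and 1.96 in the other preparations. spp-5 lay at -2.88 in preparation 4, against -0.56 to -0.19 in the others. abf-3 lay at -0.21 in preparation 2, against -0.077 to -0.059, so that all its values were near 0. Their causes were not tested.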

How the results depend on the processing

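The 2 channels of an array enter as 1 log2 ratio, so L3 and reference were compared within each array. With 1 group, no further pairing of samples was possible. No member changed sign in a call under any alternative. With values as deposited, a value on at least 2 arrays and robust eBayes, 0 member calls were lost or gained; scaled arrays and quantile normalization each gained lys-7, ilys-6 and spp-27, and probe-level testing lost lys-1 (adjusted p = 0.0509). Leaving out 1 preparation, the ranges were 2 to 4 members higher and 10 to 14 lower, 1 to 2 higher and 1 to 2 lower for lys, 0 lower for ilys, 1 to 2 higher and 1 to 5 lower for spp, 0 to 1 higher for cnc, 0 to 2 lower for fip, 0 to 1 higher and 1 to 3 lower for the regulators, and 793 to 1092 higher and 1013 to 1640 lower over all tested; fewer arrays were fitted. By preparation, 3, 4, 2 and 2 members were higher without 1, 2, 3 and 4. The ilys median ran from -0.135 (without preparation 1) to 0.149. Preparations 1 and 2 alone gave 3 members higher, 1 lys gene higher and 1 lower, 0 ilys and 0 fip lower, 1 cnc higher (cnc-8), 1 regulator higher and 1 lower, 703 and 824 of all tested, an abf median of 0.0045 and a fip median of -0.58. Preparations 3 and 4 alone gave 3 members higher, 1 lys higher and 1 lower, 0 ilys lower, 2 spp higher (spp-4 and spp-13), 0 regulators, 726 and 987 of all tested, an ilys median of -0.12 and a fip median of -1.55; spp-18 also passed there (-1.12, adjusted p = 0.0434). Scaled arrays and quantile normalization gave 2 ilys and 8 regulators lower, beside 2397 and 2485 lower over all tested. Array weights gave 2 spp and 1 cnc higher. With each probe apart the cnc median was -0.91, as cnc-3 counts with both its probes. The month block had a correlation of -0.117, which lowers standard errors. Other causes were not tested.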
